A study of Mus musculus with 53 samples.

Results

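Matrix metalloproteinases (MMPs) and their tissue inhibitors (TIMPs) were followed in mouse bone marrow-derived macrophages (BMDMs) exposed to IL-4. The 9 genes were chosen by symbol from the 23847 loci of the expression tables: Mmp8, Mmp9, Mmp12, Mmp13, Mmp14, Mmp19, Timp1, Timp2 and Timp3. Bone marrow cells of wild-type (WT) mice and of Stat6KO mice, which lack the transcription factor STAT6 in the whole body and not only in macrophages, were cultured for 6 days with the supernatant of L929 cells as the source of M-CSF. All mice were 8 to 12 weeks old and on the C57BL/6 background. Macrophages then received 20 ng/ml IL-4 for 1, 3, 6 or 24 hr or were kept without IL-4 for the same times, and a further control was taken at 0 hr. RNA-seq covered 53 samples in 18 groups. WT groups held 4 samples, except that WT with IL-4 for 24 hr held 3 (replicates 2, 3 and 4), because its replicate 1 was not analysed here, and each Stat6KO group held 2. The labels number the replicates without saying how they relate across groups.

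MMPs are zinc-dependent endopeptidases that together can cleave most proteins of the extracellular matrix, and many cytokines and receptors besides. Most are secreted as inactive precursors, some are anchored in the membrane, and TIMPs bind their active sites and block them. Macrophages use MMPs to move through tissue and to remodel it, and macrophages polarized by IL-4 are associated with wound repair and fibrosis. IL-4 acts through receptor-bound kinases that phosphorylate STAT6, which then enters the nucleus. Transcript levels of an MMP do not give its enzymatic activity, which also depends on activation of the precursor and on inhibitors.

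The members fell into functional classes that order the results below. Mmp8 and Mmp13 encode collagenases, which cut fibrillar collagen. Mmp12 encodes macrophage metalloelastase. Mmp9 encodes gelatinase B, and Mmp14 the membrane-anchored MT1-MMP, which activates pro-MMP2 with the help of TIMP2. Mmp19 encodes a secreted MMP that cleaves basement membrane proteins. TIMP1 and TIMP2 are soluble inhibitors, and TIMP3 binds to the matrix and also inhibits some ADAM proteases.

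On the mm10 build, Mmp13 (chr9:7272514-7283333), Mmp12 (chr9:7347374-7360461) and Mmp8 (chr9:7558429-7568486) lay in one cluster on chromosome 9, with 64.0 kb between Mmp13 and Mmp12 and 198.0 kb between Mmp12 and Mmp8. The others stood alone: Mmp9 at chr2:164948251-164955846, Mmp14 at chr14:54431604-54441258, Mmp19 at chr10:128790910-128800824, Timp1 at chrX:20870166-20874737, Timp2 at chr11:118301061-118355411 on the minus strand and Timp3 at chr10:86300412-86349505. Each interval is the whole transcribed locus, exons, introns and UTRs together, and GENCODE annotates all 9 as protein coding. The library kit did not mark strand. Exons of Mmp19 shared 22.3% of their bases with exons of Tmem198b on the opposite strand, and those of Timp3 shared 21.3% with Syn3, so reads from these parts cannot be told apart. Of the 50-base stretches in the transcripts, at most 0.648% (Mmp14) also occurred in another gene.

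The sequence upstream of the members that changed most is shown because members inside and outside the chromosome 9 cluster changed at the same time. RefSeq promoter windows of build GRCm38.p6 matched 7 of the 9 members (all but Mmp9 and Mmp19). For Mmp12, 2 windows were listed, and only the one nearest to the start of its locus was searched. The 250 bases before the start site are printed 5′ to 3′ for the 4 matched members that passed the test at 24 hr. Capitals mark matches to TGANTCA (AP-1), AGGAAG (ETS type), TATAAA, or the STAT-type pattern of TTC and GAA with 3 or 4 free bases between them, searched on both strands.
Mmp12 (chr9:7347124-7347373, plus strand): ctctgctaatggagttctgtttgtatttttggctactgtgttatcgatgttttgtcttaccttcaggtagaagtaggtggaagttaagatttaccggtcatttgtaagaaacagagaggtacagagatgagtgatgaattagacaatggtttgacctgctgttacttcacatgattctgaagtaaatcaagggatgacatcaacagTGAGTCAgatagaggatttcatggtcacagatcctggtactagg
Mmp13 (chr9:7272264-7272513, plus strand): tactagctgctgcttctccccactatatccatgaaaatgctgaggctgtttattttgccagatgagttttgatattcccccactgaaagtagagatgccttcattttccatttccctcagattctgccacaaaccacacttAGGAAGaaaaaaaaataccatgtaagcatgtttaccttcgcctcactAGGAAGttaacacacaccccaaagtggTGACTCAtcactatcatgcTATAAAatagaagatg
Timp1 (chrX:20869916-20870165, plus strand): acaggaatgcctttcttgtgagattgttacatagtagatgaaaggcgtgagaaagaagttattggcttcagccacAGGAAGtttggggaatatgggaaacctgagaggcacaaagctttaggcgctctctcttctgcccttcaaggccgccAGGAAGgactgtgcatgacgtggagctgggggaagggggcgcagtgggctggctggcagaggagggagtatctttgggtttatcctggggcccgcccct
Mmp14 (chr14:54431348-54431597, plus strand): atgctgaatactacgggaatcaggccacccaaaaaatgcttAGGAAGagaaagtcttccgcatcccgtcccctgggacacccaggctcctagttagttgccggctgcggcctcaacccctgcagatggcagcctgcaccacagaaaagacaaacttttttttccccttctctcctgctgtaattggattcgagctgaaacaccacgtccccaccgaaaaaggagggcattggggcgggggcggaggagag
The cluster neighbours Mmp12 and Mmp13 each held 1 AP-1 match close to the start, at 44 to 38 bases before it in Mmp12 (TGAGTCA) and at 35 to 29 bases before it in Mmp13 (TGACTCA). No AP-1 match stood in the other 5 windows, and 6.75% of all 32851 promoter windows of this length held one. Mmp13 alone held TATAAA, 16 to 11 bases before the start (12.4% of all windows). AGGAAG occurred in Mmp8, Mmp13, Mmp14, Timp1 and Timp3 (29.5% of all windows), with 2 matches each in Mmp13 and Timp1. Neither STAT-type pattern was in any of the 7 windows (5.85% of all windows with 4 free bases and 7.02% with 3). These are matches of letters in a short window, not mapped binding sites.

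Levels are in FPKM, which divides the fragments of a gene by transcript length and by the fragments mapped in the sample, so different genes are compared per length. Each sample had between 10017 and 10380 loci at 1 FPKM or more. The tables hold no counts, and relative depth was read from 5233 low loci. It ran from 0.707 to 1.55 times the median sample, and was 0.859 to 1.18 in WT with IL-4 for 24 hr against 0.848 to 1.03 in the time-matched controls. Stat6 itself was at 58.7 to 90.6 FPKM in the 35 WT samples and at 14.3 to 24.0 FPKM in the 18 Stat6KO samples, without overlap, so the genotype labels held. Differences were tested with limma on log2(FPKM + 1) over 11146 loci that reached 1 FPKM in at least 1 sample, and a change was called at a Benjamini-Hochberg adjusted p under 0.05 with at least a 2-fold difference. On this scale the change of a gene near or under 1 FPKM is understated. Of the 9 members 8 entered the test. Timp3 did not, with 0.147 FPKM at most, and Timp1 passed the 1 FPKM filter through samples of both genotypes.

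The 2 Stat6KO replicates stood far apart in Mmp12 at every time and kept the same order in several other members, which bears on all results for this genotype. Mmp12 was at 97.6 FPKM in replicate 1 and at 26.9 in replicate 2 at 0 hr. At 24 hr the pair was at 721 and 21.2 FPKM without IL-4 and at 654 and 24.5 with IL-4. Over the 9 Stat6KO groups, replicate 1 was higher in all 9 for Mmp12 (mean log2 difference 2.88), Mmp19 (0.92), Timp2 (0.69) and Mmp8 (0.56), and lower in all 9 for Mmp14 (-1.09). The smallest difference in any group was 1.82 for Mmp12, but 0.47 for Timp2, 0.22 for Mmp19, 0.08 for Mmp8 and -0.18 for Mmp14. Across all loci tested, 34.2% were higher or lower in the same replicate in all 9 groups, the median absolute mean difference was 0.157, and 30 loci exceeded that of Mmp12. The limma fit took both replicates of each group as equals, so this gap enters its error.

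**Figure D1:**
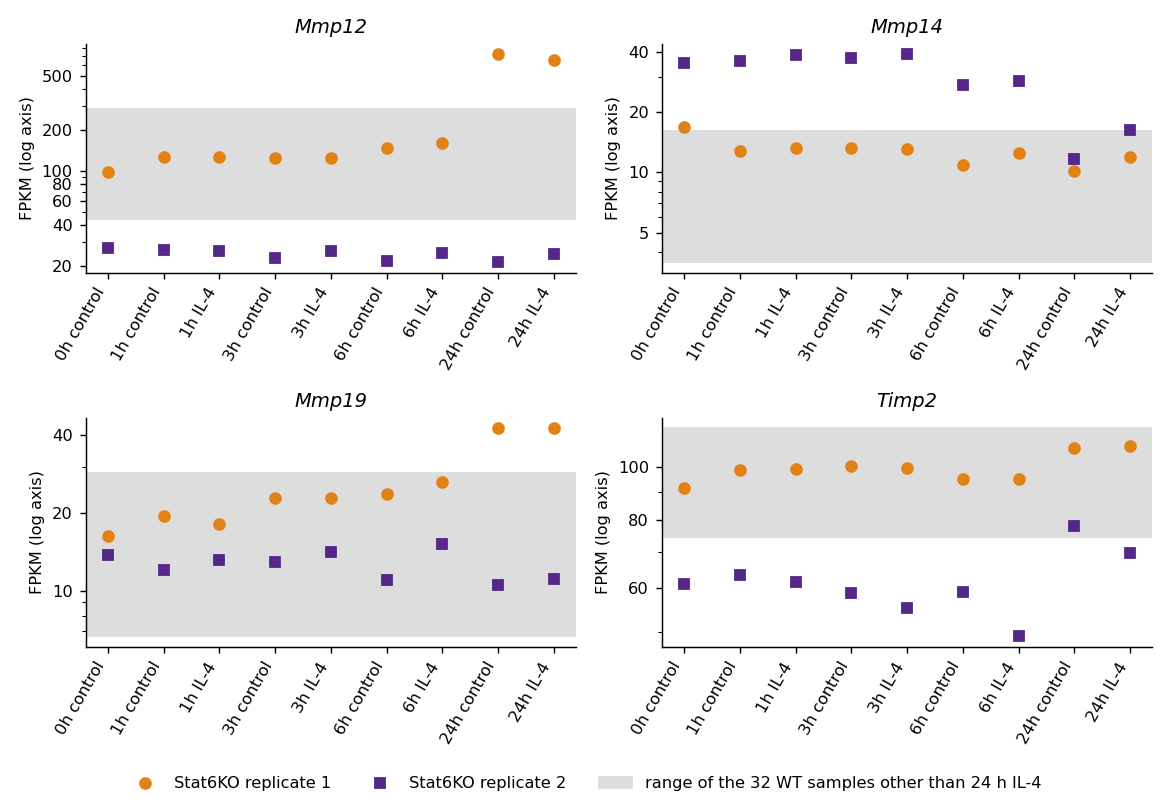
Levels of Mmp12, Mmp14, Mmp19 and Timp2 in the Stat6KO samples, in FPKM on a log axis, by group (x axis). Circles are replicate 1 and squares replicate 2, and the grey band spans the 32 WT samples other than those with IL-4 for 24 hr. Mmp12 in replicate 1 rises from 97.6 at 0 hr to 721 in the 24 hr control, while replicate 2 stays between 21.2 and 26.9.

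In WT macrophages 5 of the 8 tested members changed after 24 hr of IL-4 and 0 after 1, 3 or 6 hr. Mmp12, Mmp19, Mmp13 and Timp1 rose, and Mmp14 fell. Among all loci, 8.5% were called at 24 hr (3.91% higher and 4.58% lower), and 1.49%, 3.88% and 5.54% at 1, 3 and 6 hr. One member passed an unadjusted p of 0.05 at each early time, Mmp13 at 1 hr, Mmp19 at 3 hr and Mmp14 at 6 hr, where 19.8%, 37% and 48.4% of all loci did. Of the 947 loci called at 24 hr, 665 (70.2%, or 5.97% of the loci tested) had likewise not been called earlier.

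**Figure D2:**
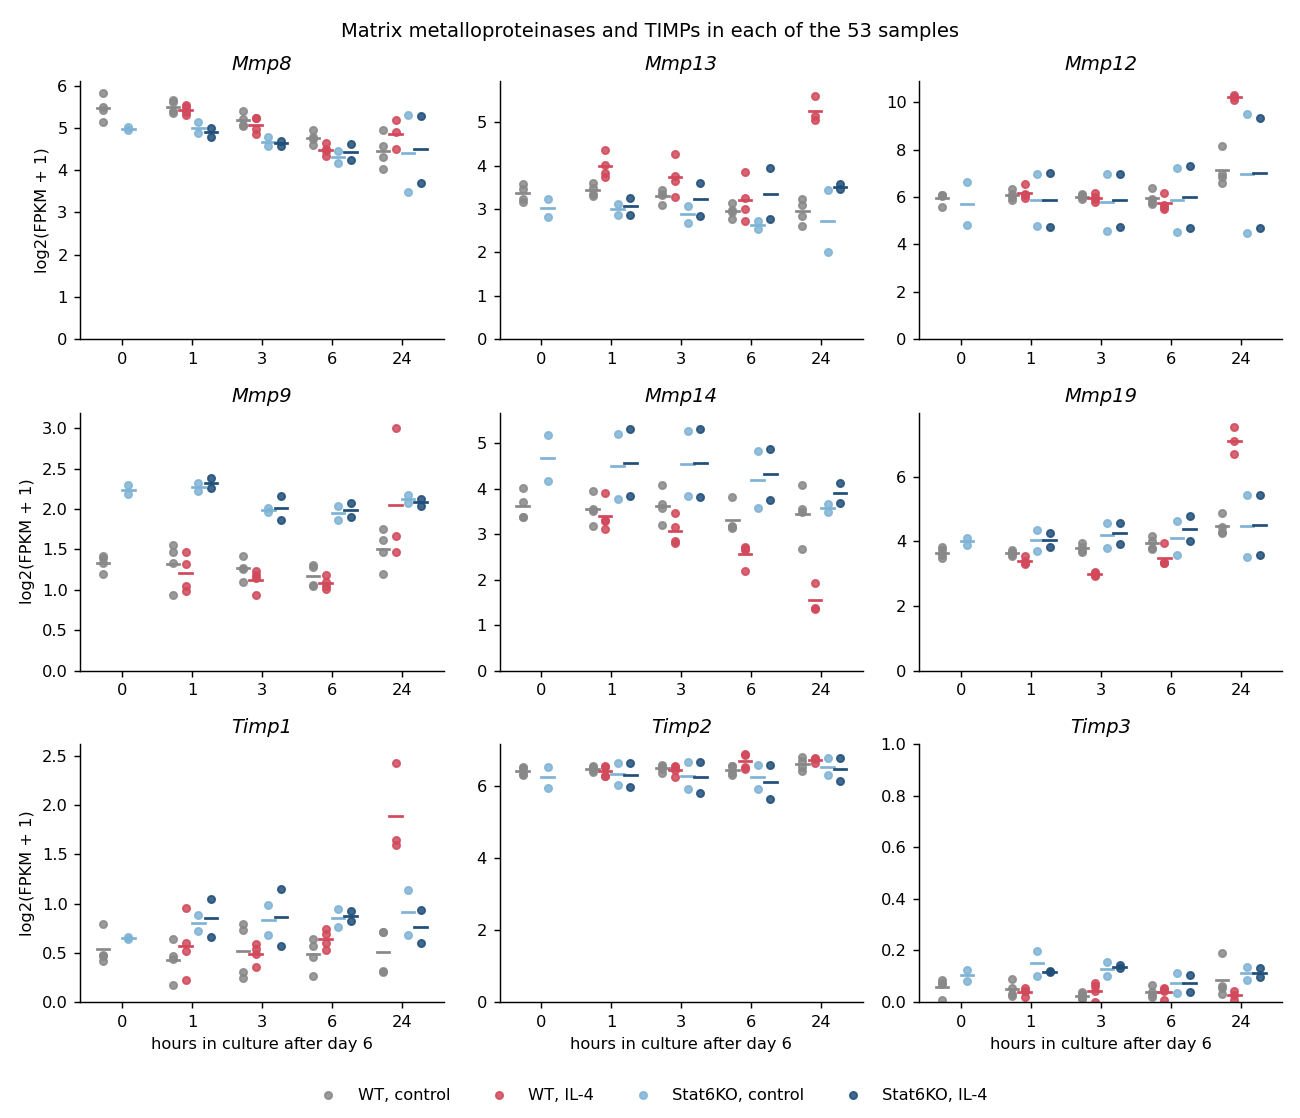
Level of each member in every sample, as log2(FPKM + 1) against hours, with WT and Stat6KO controls and IL-4 samples in 4 colours and a bar at each group mean. The 3 WT samples with IL-4 for 24 hr lie above all their controls in Mmp12, Mmp13, Mmp19 and Timp1 and below them in Mmp14.

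Among the collagenases, Mmp13 rose and Mmp8 did not pass the test. Mmp13 was at 5.13, 8.40, 6.10 and 7.55 FPKM in the 24 hr controls and at 47.4, 34.5 and 31.9 FPKM with IL-4. The groups did not overlap, as for 64.5% of all loci at 24 hr. The log2 difference was 2.32 (SE 0.26, adjusted p = 2.0e-09, limma), the 75th largest increase among the loci tested. Mmp13 was also above its controls at 1 hr, with 12.4 to 19.6 FPKM against 8.80 to 11.1 without overlap, as for 16.1% of loci at that time. This early difference did not pass (log2 0.56, adjusted p = 0.172, and 0.0262 to 0.719 over 15 alternatives, none of which called it). At 6 hr the ranges overlapped, with 5.55 to 13.4 FPKM against 5.76 to 7.76.

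Mmp8 was far more abundant than Mmp13 before IL-4, at 44.0 ± 8.70 FPKM (SD, n = 4) at 0 hr. At 24 hr it was at 18.9, 15.3, 22.8 and 29.9 FPKM in controls and at 21.8, 28.9 and 35.6 with IL-4. These ranges overlapped, and the log2 difference was 0.40 with a 95% interval of -0.13 to 0.94 (adjusted p = 0.198, limma).

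Mmp12 became the most abundant member. It was at 94.6, 114, 124 and 286 FPKM in the 24 hr controls and at 1208, 1105 and 1252 FPKM with IL-4. All IL-4 samples exceeded all controls, although control replicate 4 stood above the other 3. The log2 difference was 3.08 (SE 0.84, adjusted p = 0.00223, limma), the 34th largest increase. By mean level Mmp12 moved from rank 1053 of 23847 loci at 0 hr to rank 366 in the 24 hr controls and rank 40 with IL-4. With the analysis of variance and Tukey adjustment the call was lost (adjusted p = 0.102, against 1.61e-09 to 0.102 over 14 alternatives), and with only the 7 WT samples compared it was kept (adjusted p = 1.62e-04). At 1, 3 and 6 hr Mmp12 stayed between 44.4 and 92.2 FPKM with or without IL-4.

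Mmp19 fell at first and rose later. At 3 hr it was at 11.7, 12.1, 13.1 and 14.3 FPKM in controls and at 6.76, 6.65, 7.22 and 7.08 FPKM with IL-4. The 4 IL-4 samples were all below the 4 controls, where 38.9% of loci had no overlap. The decrease was under 2-fold and so not called (log2 -0.80, SE 0.29, adjusted p = 0.035, limma, and 1.49e-05 to 0.488 over 15 alternatives). An adjusted p under 0.05 alone was reached by 28.9% of loci at 3 hr. At 24 hr Mmp19 was at 18.6, 18, 20.9 and 28.6 FPKM in controls and at 102, 137 and 183 FPKM with IL-4, again without overlap. This increase was called (log2 2.64, SE 0.31, adjusted p = 6.2e-09). An adjusted p under 0.05 for a decrease at 3 hr and for an increase at 24 hr was found for 176 of the 11146 loci (1.58%), and 23 of them (0.206%) were called at 24 hr. Tmem198b, whose exons overlap those of Mmp19, was at 9.60 ± 0.384 (SD, n = 4) and 11.0 ± 0.438 FPKM (SD, n = 3) at 24 hr without and with IL-4.

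Mmp9 was low throughout in WT. At 24 hr it was at 2.37, 1.29, 2.08 and 1.76 FPKM in controls and at 7.0, 1.78 and 2.17 FPKM with IL-4. Replicate 2 alone stood above the controls, and the other 2 IL-4 samples lay within their range. The log2 difference was 0.54 (SE 0.19, adjusted p = 0.0153, limma), under 2-fold, where 55% of loci had an adjusted p under 0.05. It was 0.06 without replicate 2 of the IL-4 group (adjusted p = 0.740).

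Mmp14, the membrane-anchored member, declined. At 6 hr it was at 13.1, 7.77, 7.96 and 8.02 FPKM in controls and at 5.52, 3.55, 5.60 and 5.24 FPKM with IL-4. The groups did not overlap, as for 46.1% of loci, but the difference did not pass (log2 -0.76, adjusted p = 0.0885, limma). With a term for the replicate number the adjusted p was 3.39e-04 (limma), for a difference still under 2-fold and so not called. At 24 hr the controls were at 16, 5.41, 10.7 and 10.2 FPKM and the IL-4 samples at 1.57, 1.60 and 2.79. The difference was then called (log2 -1.90, SE 0.39, adjusted p = 8.5e-05) and was the 107th largest decrease.

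Of the inhibitors, Timp1 rose from a low level and the abundant Timp2 did not pass the test. Timp1 was at 0.246, 0.235, 0.642 and 0.638 FPKM in the 24 hr controls and at 4.40, 2.03 and 2.14 FPKM with IL-4, without overlap. The log2 difference was 1.38 (SE 0.18, adjusted p = 2.5e-08, limma), on the scale that understates low genes. Without replicate 2 of the IL-4 group it was 1.11. Timp1 lies within Syn1, on the opposite strand and with no shared exon bases, and Syn1 went the other way, with 8.73 ± 0.913 FPKM (SD, n = 4) in controls and 6.48 ± 0.682 (SD, n = 3) with IL-4.

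Timp2 held nearly all of the TIMP transcripts. It was at 91.7, 85, 110 and 102 FPKM in the 24 hr controls and at 98.3, 110 and 106 with IL-4, with full overlap (log2 0.11, 95% interval -0.31 to 0.53, adjusted p = 0.672, limma). At 6 hr the ranges were 77.7 to 93.0 and 87.6 to 118 FPKM (log2 0.24, adjusted p = 0.329). With a term for the replicate number the adjusted p at 6 hr was 1.95e-04 (limma), for a difference of the same size that is too small to be called. Timp3 ran from 0 to 0.141 FPKM in WT and from 0.0242 to 0.147 in Stat6KO samples, levels too low to compare.

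**Figure D3:**
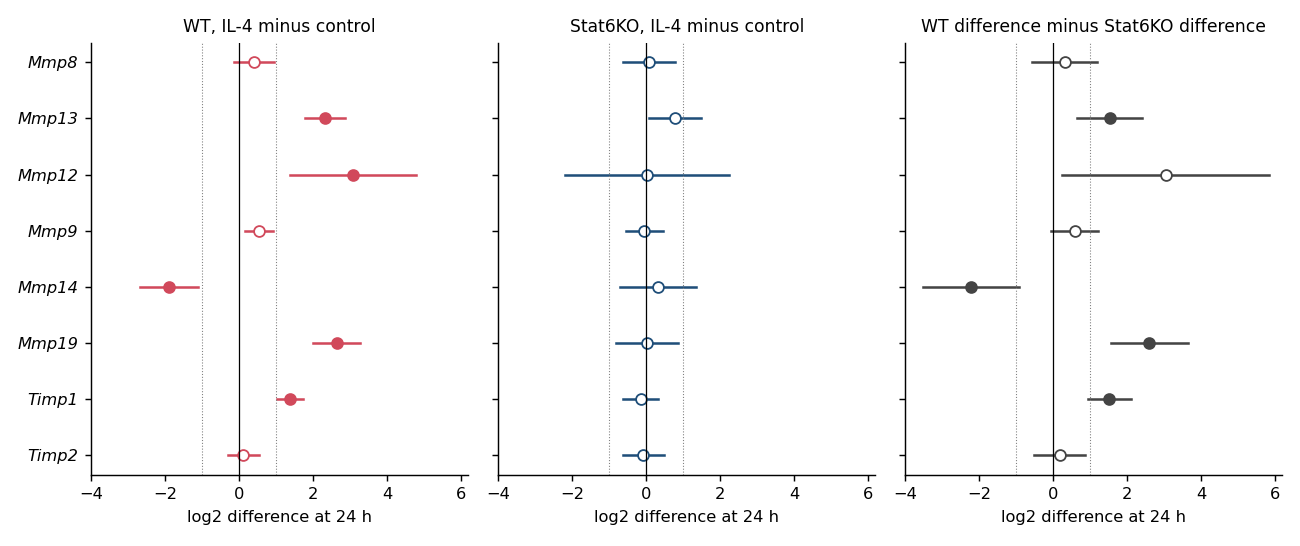
Log2 differences of FPKM + 1 at 24 hr for the 8 tested members, with 95% intervals: IL-4 against control in WT (left), in Stat6KO (middle), and the first minus the second (right). Filled points passed the test and the 2-fold limit, drawn as dotted lines. The WT panel has 5 filled points, the Stat6KO panel none and the right panel 4, with Mmp12 open at 3.05 since its adjusted p was 0.0973.

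Summed over the 6 MMP members, the level was 217 ± 98.9 FPKM (SD, n = 4) in the WT 24 hr controls and 1402 ± 100.1 FPKM (SD, n = 3) with IL-4. Mmp12 made up 69.0% ± 7.45 and 84.8% ± 2.02 of these sums. The rest without Mmp12 was 62.5 ± 12.2 FPKM in controls and 213 ± 38.6 FPKM with IL-4. The sum of the 3 TIMPs was 97.6 ± 11.2 and 107 ± 4.48 FPKM. The MMP sum per TIMP sum therefore lay between 1.68 and 3.55 in the controls and between 11.7 and 13.9 with IL-4. At 6 hr it pointed the other way, with 1.29 to 1.51 in controls and 0.799 to 1.09 with IL-4. Neither pair of ranges overlapped. These sums were not tested and describe transcripts, not protein.

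**Figure D4:**
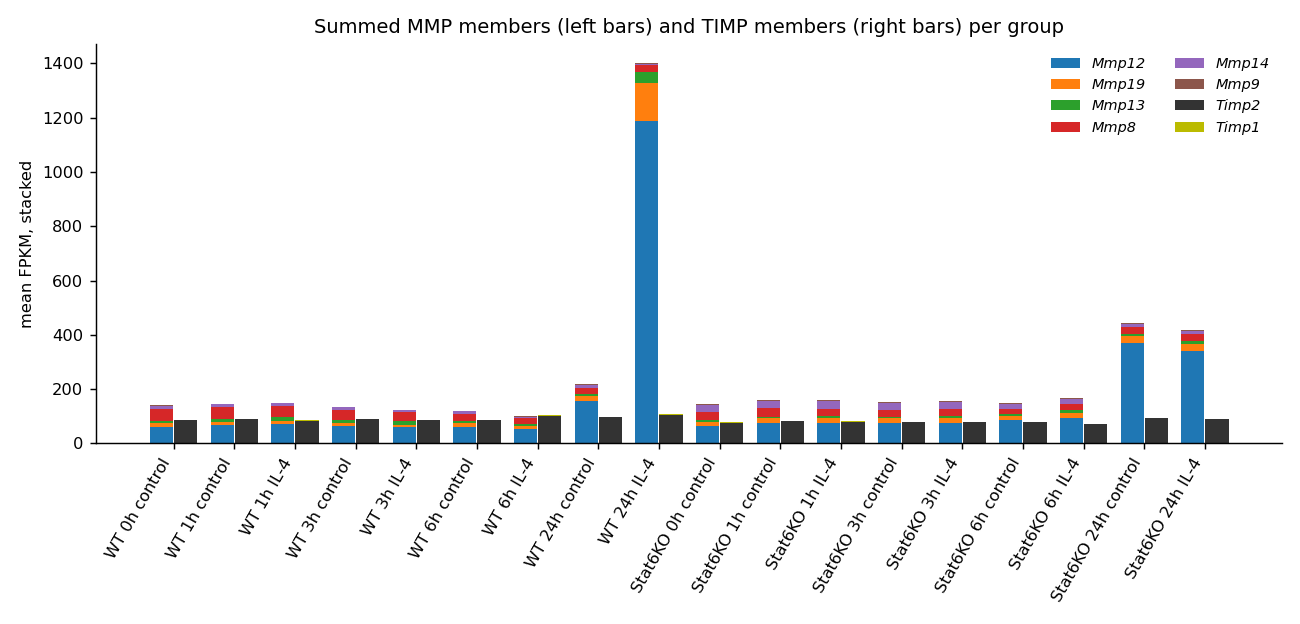
Mean FPKM of the MMP members (left bar of each pair, stacked by gene) and of Timp2 and Timp1 (right bar), for each of the 18 groups, with Timp3 too low to draw. The MMP bar of WT with IL-4 for 24 hr reaches 1402 FPKM, of which Mmp12 is 1188, against 217 in its controls, and the Stat6KO bars at 24 hr average replicates of 721 and 21.2 FPKM Mmp12 (control).

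The change of the IL-4 effect between 6 and 24 hr in WT was tested directly. It was called for Mmp12 (log2 3.29, adjusted p = 0.028), Mmp19 (3.08, adjusted p = 4.98e-07), Mmp13 (2.07, adjusted p = 2.2e-05) and Timp1 (1.23, adjusted p = 1.24e-04, all limma). That is 4 of the 8 members tested, where 6.06% of all loci were called. Mmp14 had a difference of -1.14 that did not pass (adjusted p = 0.105), and passed without control replicate 2 at 24 hr (-1.40, adjusted p = 0.0491, and 0.00173 to 0.218 over its alternatives). Leaving out 1 library ended the Mmp12 call in 3 cases, IL-4 replicate 2 (3.28, adjusted p = 0.0517), IL-4 replicate 4 (3.25, 0.0516) or control replicate 1 (3.10, 0.0530) at 24 hr. Its adjusted p ran from 4.74e-07 to 0.0530 over 21 alternatives. Without IL-4 replicate 2, Timp1 also dropped under 2-fold (0.96).

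In Stat6KO macrophages 0 of the 8 members were called after IL-4 at any time. This was so for all loci (0%). Unadjusted p-values under 0.05 were found at 51, 131, 88 and 37 loci at 1, 3, 6 and 24 hr (0.458%, 1.18%, 0.79% and 0.332%). At this threshold no effect at all would give larger shares, and the gap between the replicates enters the error. The absence of calls in this fit therefore cannot show that IL-4 had no effect. With a term for the replicate number 1, 1, 1 and 0 loci were called, and the analysis of variance with Tukey adjustment called 3, 1, 0 and 0. At 24 hr Mmp19 was at 42.4 and 10.5 FPKM in controls and at 42.4 and 11.0 with IL-4, so each replicate stayed at its own level. Timp1 was at 1.20 and 0.606 FPKM in controls and at 0.913 and 0.514 with IL-4. Mmp14 was at 10.2 and 11.7 FPKM in controls and at 11.8 and 16.3 with IL-4.

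Mmp13 was the 1 member whose unadjusted p fell under 0.05 in Stat6KO, at 6 and 24 hr, where 0.79% and 0.332% of loci had one. Both shares are smaller than no effect at all would give, so they are a poor measure of the background. It was at 4.79 and 5.65 FPKM in the 6 hr controls and at 5.77 and 14.3 with IL-4, and at 9.80 and 3.03 FPKM in the 24 hr controls and at 10.8 and 9.96 with IL-4. The groups did not overlap at either time, as for 14.1% and 8.19% of loci, and the log2 differences of 0.72 and 0.79 did not pass (adjusted p = 1.00 for both, limma). With 2 samples a group and the gap between replicates, wide intervals remain: for Mmp12 at 24 hr the log2 difference was 0.03 with an interval of -2.20 to 2.25.

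The difference between the genotypes in the IL-4 effect was called at 24 hr for 4 members, where 6.85% of all loci were called. It shares samples with both comparisons above. It was 2.61 for Mmp19 (SE 0.52, adjusted p = 2.02e-04), 1.52 for Timp1 (SE 0.29, adjusted p = 1.14e-04), 1.53 for Mmp13 (SE 0.43, adjusted p = 0.00721) and -2.22 for Mmp14 (SE 0.64, adjusted p = 0.00815, all limma). For Mmp12 it was 3.05 (SE 1.38, adjusted p = 0.0973) and not called in this fit, which has no term for the replicate number. At 1, 3 and 6 hr 0 members were called, where 1.25%, 3.48% and 4.41% of loci were called. At an unadjusted p under 0.05 the count was also 0, where 10.2%, 20.4% and 27.3% of loci passed.

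Of these 4 calls, only that of Timp1 was kept under all 19 alternatives. Mmp13 was lost without Stat6KO replicate 1 of the 24 hr controls (0.82, adjusted p = 0.239, and 1.34e-04 to 0.239 over the alternatives) or without that replicate at every time (0.88), and Mmp14 without Stat6KO replicate 2 of the 24 hr IL-4 group (-2.0, adjusted p = 0.0609, and 1.21e-06 to 0.0609). Fitted on the samples compared alone, Mmp13 (adjusted p = 0.065) and Mmp19 (adjusted p = 0.064, and 5.35e-09 to 0.064 over the alternatives) were not called. For Mmp12, a replicate block, which keeps both Stat6KO replicates, gave a difference of 2.97 (SE 0.55, adjusted p = 4.5e-05, limma), which was called. The labels do not say that a replicate number marks an animal. Leaving out 1 sample of the 24 hr groups moved the Mmp12 difference between 0.54 and 5.56, as 1 replicate of 1 group was then set against both of the other. With either Stat6KO replicate left out at every time it was 2.88 (without replicate 1) and 3.22 (without replicate 2), with adjusted p = 4.49e-05 and 8.45e-06 (8.45e-06 to 0.861 over all alternatives). Each Stat6KO group then holds 1 sample, the error comes from the WT groups alone, and these p-values do not measure the spread between Stat6KO samples. Mmp8 became called without Stat6KO replicate 1 of the IL-4 group (1.11, adjusted p = 0.0421) or replicate 2 of the controls (1.23, adjusted p = 0.0167) at 24 hr.

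Without IL-4, 0 members were called between the genotypes at any time, where 0.35%, 0.26%, 0.126%, 0.0449% and 0.0269% of loci were called at 0, 1, 3, 6 and 24 hr. Mmp9 and Mmp14 had unadjusted p-values under 0.05 at 0, 1 and 3 hr, and Mmp9 at 6 and 24 hr, where 14%, 11.9%, 10.5%, 9.43% and 5.63% of loci had one at these 5 times. Mmp9 was higher in each Stat6KO control than in any WT control. At 0 hr it was at 3.54 and 3.90 FPKM in Stat6KO and at 1.64, 1.30, 1.68 and 1.51 FPKM in WT. The log2 difference was 0.90 (SE 0.21, adjusted p = 0.0176, limma) at 0 hr and 0.95 (adjusted p = 0.0132) at 1 hr, both just under 2-fold, where 2.18% and 1.54% of loci had an adjusted p under 0.05. At 3, 6 and 24 hr it was 0.73, 0.77 and 0.62 and did not pass (adjusted p = 0.0929, 0.102 and 0.431). Over the controls of all times, 20 of 11146 loci (0.179%) separated the genotypes without overlap, 10 of them (0.0897%) higher in Stat6KO, and Mmp9, singled out after its values were seen, was among these.

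Mmp8 went the other way at the early times, with 31.6 and 29.9 FPKM in Stat6KO against 34.4 to 55.4 FPKM in WT at 0 hr. The groups did not overlap at 0, 1, 3 or 6 hr, as for 18.9%, 18.5%, 23% and 16.8% of loci, and no difference passed (log2 -0.52 to -0.46, adjusted p = 0.509, 0.566, 0.611 and 0.760). At 24 hr, where 10.4% of loci had no overlap, Stat6KO replicates were at 38.9 and 10.3 FPKM, on both sides of the WT controls.

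For Mmp14 the size of the difference, and for Mmp12 its direction, depended on the Stat6KO replicate. Mmp14 was at 16.9 and 35.1 FPKM in Stat6KO at 0 hr, both above the WT range of 9.32 to 15.2 FPKM (log2 1.05, adjusted p = 0.243). With replicate 1 left out at every time, the difference was 1.55, 1.65, 1.63 and 1.5 at 0, 1, 3 and 6 hr. Mmp12 in the 24 hr controls had a log2 difference of -0.15 (adjusted p = 1.00), which was -2.66 without replicate 1 at every time and 2.36 without replicate 2. Without replicate 1 it was also below 0 at 0, 1, 3 and 6 hr (-1.15, -1.31, -1.44 and -1.43). All these values passed the test, but each sets 1 Stat6KO sample against 4 WT samples, with that sample assumed to vary like those of the WT groups, so the calls hold no information on the spread between Stat6KO samples. These 2 alternatives were chosen after the data were seen.

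During culture without IL-4 the collagenase Mmp8 fell in WT. From 0 to 24 hr it went from 34.4, 44.1, 55.4 and 42.2 FPKM to 18.9, 15.3, 22.8 and 29.9 FPKM, without overlap, as for 24.8% of loci. The log2 difference was -1.01 (SE 0.25, adjusted p = 0.00378, limma), so Mmp8 was the 1 member called, where 1.13% of loci were called. It lies at the 2-fold limit, and 3 of the libraries decided it: the difference was -0.89 without 0 hr replicate 3, -0.96 without 24 hr replicate 1 and -0.86 without 24 hr replicate 2. With quantile scaling it was -0.99. Mmp19 was higher at 24 hr (0.82, adjusted p = 0.0468), under 2-fold, where 17.2% of loci had an adjusted p under 0.05. Mmp12 went from 47.3 to 67.5 FPKM at 0 hr to 94.6 to 286 FPKM at 24 hr, without overlap, and did not pass in the fit of all samples (1.18, adjusted p = 0.305), though it did with only the samples compared (adjusted p = 0.0314, and 0.00285 to 0.555 over the alternatives). In Stat6KO 0 members were called from 0 to 24 hr, where 0.161% of loci were called. Mmp14 was lower at 24 hr in both Stat6KO replicates, at 16.9 and then 10.2 FPKM in replicate 1 and at 35.1 and then 11.7 FPKM in replicate 2 (log2 -1.09, adjusted p = 0.307, limma). Mmp12 was at 97.6 and then 721 FPKM in Stat6KO replicate 1, and at 26.9 and then 21.2 FPKM in replicate 2. Mmp8 in Stat6KO was called without replicate 1 of the 24 hr controls (-1.50, adjusted p = 0.0105). It was at 31.6 and then 38.9 FPKM in replicate 1, and at 29.9 and then 10.3 FPKM in replicate 2.

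The patterns of the members over the 18 group means of log2(FPKM + 1) are given as a description, since the groups share 1 normalization and the Stat6KO means average 2 unlike replicates. The highest Pearson r between members was 0.909, for Mmp19 and Timp1, followed by 0.895 for Mmp12 and Mmp19. The lowest was -0.859, for Mmp14 and Timp2. Among 2674 other loci whose group means spanned at least a 2-fold range (2675 for Timp2), those closest to Mmp12 were Eef1a2 (0.983), Serpinb9b (0.982) and Serpinb1b (0.979). Closest to Mmp19 were Dcstamp (0.978), Arhgap25 (0.962) and Prokr1 (0.962), and closest to Mmp13 were Abhd5 (0.893), Sept11 (0.890) and Fzd7 (0.886). Mmp14 was closest to Retnlg (0.975), Acp2 (0.972) and Fbrsl1 (0.970). For Mmp9 these were Rab4a (0.947), Prss34 (0.928) and H2-Ab1 (0.907), and for Mmp8 Ung (0.897), Cdca7l (0.897) and Mboat1 (0.868). Timp1 was closest to Ptprn (0.951), Nxn (0.933) and Cd36 (0.933), and Timp2 to Large (0.917), Ephx1 (0.865) and Phlda3 (0.857).

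Most of the remaining family was at or near 0. Of 17 other MMP genes in the tables, 15 stayed under 1 FPKM in all 53 samples, among them Mmp2, the gelatinase that MT1-MMP activates, at 0.584 FPKM at most, and the stromelysin gene Mmp3, listed at 0 in 46 samples. Mmp27 (median 4.67 FPKM) and Mmp25 (median 0.504 FPKM) were tested, and 0 of the 2 were called in WT at any time. The other inhibitors Timp4, Reck and A2m stayed under 1 FPKM.

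Genes that act with MMPs were described by lists. Of all loci 3.91% were called higher and 4.58% lower in WT at 24 hr, and 6.85% for the genotype difference in the IL-4 effect. Of 13 genes of plasmin and its activators, a cascade that can activate pro-MMPs, 6 were tested, and 3 were called higher and 0 lower in WT at 24 hr (median log2 0.91, against -0.07 over all loci). These were Plaur, the urokinase receptor (26.0 ± 5.24 to 140 ± 13.8 FPKM, log2 2.40, adjusted p = 4.77e-10), Plau, urokinase (41.3 ± 6.22 to 143 ± 47.7 FPKM, 1.73, 1.16e-06) and Anxa2, a receptor for plasminogen (563 ± 56.9 to 1417 ± 117 FPKM, 1.33, 1.3e-09; SD, n = 4 and 3, limma). Plaur was called lower at 3 hr, before its increase, with 28.3 ± 3.34 FPKM in controls and 10.4 ± 1.02 with IL-4 at 3 hr (SD, n = 4 each, log2 -1.36, adjusted p = 1.34e-05). The IL-4 effect on all 3 also differed between the genotypes at 24 hr, with adjusted p = 1.35e-04 for Plaur, 0.00891 for Plau and 1.17e-04 for Anxa2 (limma).

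Of 11 genes for surface partners of MMPs and for their clearance, 10 were tested, and 2 were called higher and 1 lower at 24 hr (median 0.32). Those named at their largest change were Itgb3, an integrin chain (2.71 at 6 hr, adjusted p = 4.85e-13), Mrc1, the mannose receptor, which takes up collagen fragments (2.62 at 6 hr, 3.15e-11), Cd9, a tetraspanin (1.49 at 24 hr, 0.0036), Cd82, another tetraspanin (-1.70 at 24 hr, 1.73e-08), and Lrp1, an endocytic receptor that clears MMPs (-1.27 at 6 hr, 2.32e-14, all limma). Lrp1 went from 140 ± 18.6 to 57.0 ± 2.04 FPKM at 6 hr (SD, n = 4 each). The genotype difference in the IL-4 effect at 24 hr was called higher for 1 gene of this list and lower for 1.

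Of 11 genes for cathepsins and glycan cleavage, all were tested, with 1 called higher and 1 lower at 24 hr (median 0.06). For the genotype difference in the IL-4 effect at 24 hr 0 of them were called. Ctsk, the collagen-degrading cathepsin K, was at 7.42 ± 3.6 FPKM in controls and at 23.6 ± 8.33 with IL-4 (SD, n = 4 and 3, log2 1.58, adjusted p = 0.0218), and Ctsc, which activates granule proteases, at 135 ± 19.5 and 51.4 ± 6.82 (-1.37, 0.00288). Of 21 matrix component genes 9 were tested, and 1 was called higher and 1 lower (median -0.24). Their genotype difference in the IL-4 effect at 24 hr was called higher for 1 and lower for 2. Fn1, fibronectin, was at 0.480 ± 0.124 and 5.31 ± 0.757 FPKM (2.09, 5.5e-16), and Thbs1, thrombospondin 1, at 72.3 ± 14.9 and 3.31 ± 0.812 (-4.08, 3.7e-19). Tgfbi, a collagen-binding matrix protein, was called lower at 6 hr (-1.11, adjusted p = 0.00214). Of 13 ADAM and ADAMTS genes 7 were tested and 0 were called at any time.

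**Figure D5:**
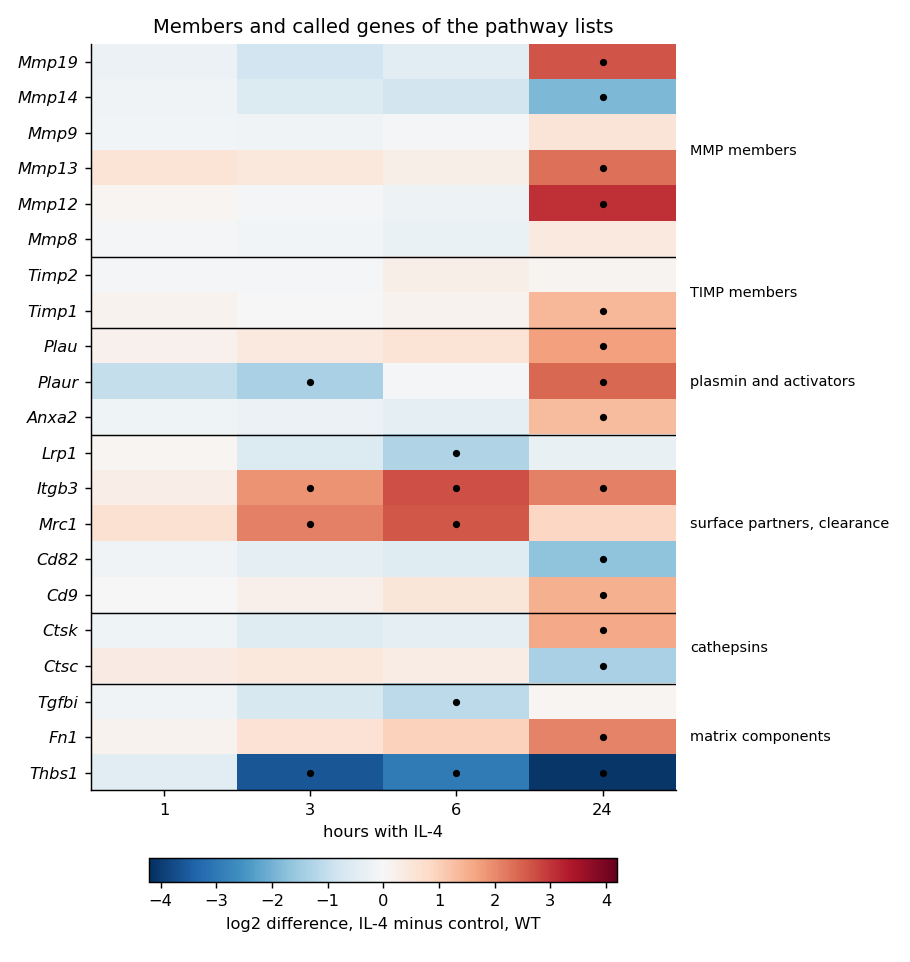
Log2 differences of FPKM + 1 between IL-4 and control in WT at 1, 3, 6 and 24 hr (columns) for the 8 tested members and the called genes of the pathway lists (rows). Red is higher with IL-4, blue lower, and a dot marks a called change. All dots of the MMP and TIMP members are in the 24 hr column, while Thbs1, Itgb3, Mrc1 and Plaur have dots at 3 hr.

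Markers of other cell types were read beside these values. In bulk RNA fewer cells of a type and less RNA per cell cannot be told apart. Of 8 macrophage markers 7 were in the tables, and each reached 1 FPKM. Lyz2, listed at 0 in 7 samples, was left out of their sum, which was 2604 to 2626 FPKM in WT with IL-4 for 24 hr and 3274 to 3773 in its controls, with 3 of the 7 called lower and 0 higher. Markers of fibroblasts (8) and lymphoid cells (7) stayed under 1 FPKM in every sample, with sums of at most 1.26 and 1.31 FPKM, and those of dendritic (6) and of mast cells and basophils (5) summed to at most 8.73 and 2.59 FPKM.

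Neutrophil and osteoclast markers also differed between groups. The 11 neutrophil markers in the tables summed to 253 to 359 FPKM in WT with IL-4 for 24 hr against 488 to 676 in its controls (3 called lower, 0 higher), and to 645 to 1138 FPKM over the Stat6KO samples against 253 to 676 over WT. Csf3r did not follow the order between genotypes. Its mean was 46.5 FPKM in WT at 0 to 6 hr and 34.8 in WT controls at 24 hr. In Stat6KO replicates 1 and 2, over all times, it was 37.1 and 39.8 FPKM. Neutrophils store MMP8 and MMP9 in their granules. With IL-4 for 24 hr in WT the log2 differences of Mmp8 and Mmp9 were 0.40 and 0.54, neither called. The part of neutrophils in the Mmp8 and Mmp9 values was not tested. Of 6 osteoclast markers, 5 reached 1 FPKM. Their sum was 558 to 622 FPKM in WT with IL-4 for 24 hr against 52.3 to 97.7 in its controls. Higher by the test were 3 (Dcstamp, Ocstamp and Atp6v0d2, which serve cell fusion and acidification), and 0 were called lower. Atp6v0d2 alone had means of 35.6 FPKM in these controls and 407 with IL-4. Nfatc1 went the other way by less than 2-fold, with means of 16.9 and 11.2 FPKM. Calcr, the calcitonin receptor that marks mature osteoclasts, was listed at 0 in 46 samples and reached 0.009 FPKM at most. Over the Stat6KO samples the same sum was 54.6 to 165 FPKM in replicate 1 and 34.8 to 45.3 in replicate 2, the order that Mmp12 and Mmp19 showed. Atp6v0d2 and Dcstamp carried this order, while Acp5 (means of 4.18 and 10.2 FPKM in replicates 1 and 2) and Nfatc1 (16.9 and 19.7 FPKM) had the other. At 24 hr without IL-4, Dcstamp was at 26.6 FPKM in replicate 1 and 1.79 in replicate 2. Whether the fusion genes have a part in the Mmp12 and Mmp19 values was not tested.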

How the data were processed

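Poly-A RNA-seq of BMDMs was analysed from tables of 23847 loci in each of 53 samples. Per the labels and the study's methods, the authors mapped paired reads to mm10 with TopHat2 2.0.7 and deposited FPKM values computed with Cufflinks 2.0.2 at default parameters. The gene annotation and counts were not given in the sources used here, and the kit did not mark strand. FPKM is scaled within a sample, so a few abundant genes can shift the others.

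Tables were joined by locus and symbol. Values were tested as log2(FPKM + 1) with limma 3.58.1 (R 4.3.3, trend), 1 mean per group over all 53 samples (35 residual degrees of freedom), in 26 comparisons, on loci that reached 1 FPKM in any sample, with Benjamini-Hochberg adjustment over 11146 loci. A single-factor analysis of variance with Tukey adjustment, on the same log2 values and without the 0 hr groups, served as an alternative. The study names a 2-way analysis of variance with post hoc tests and states no scale, so its own test was not repeated. Scripts were tested on simulated data. Replicates are separate samples by label, and 0 pairs of tables were identical, and the study states individual animals for WT only, so p-values measure the spread between these samples. Relative depth came from FPKM ratios of low loci (99.9% of 1378 sample pairs within 2%).

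Other settings were a pseudocount of 0.1, no filter, TPM and quantile scaling, only the samples compared, a replicate block, and leaving out each sample. The genes named are the 9 members, Stat6, at most the 3 largest increases and 3 largest decreases of each pathway list among genes called in WT with IL-4, the 3 nearest patterns per member, markers and overlapping genes. Mmp9 in the controls was singled out after its values were seen, and so were the alternatives without 1 Stat6KO replicate at every time. One gene of the pathway lists was left out of them and is not reported here. The members and lists were chosen with earlier results of these data known.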

Additional observations from a re-analysis of the deposited data

Results flagged for a closer look

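A sample far from the other 3 of its WT group was found 5 times among 72 groups of 4 examined. Independent groups would give about 3.6 (1 in 20), but WT replicates kept their order across groups, so the 2 numbers cannot be compared. Replicate 4 was highest in 7 of 9 WT groups for Mmp12 and in 8 of 9 for Mmp19. Replicate 1, absent from the 24 hr IL-4 group, was highest in 7 of 8 for Mmp14 and lowest in 6 of 8 for Mmp12. Mmp12 was at 47.3 FPKM in 0 hr control replicate 1 against 64.9 to 67.5 in the others, and at 286 FPKM in 24 hr control replicate 4 against 94.6 to 124. Mmp14 was at 13.1 FPKM in 6 hr control replicate 1 against 7.77 to 8.02. Mmp19 was at 14.4 FPKM in 6 hr IL-4 replicate 4 against 9.01 to 9.31, and Timp1 at 0.736 FPKM in 0 hr control replicate 4 against 0.336 to 0.394. The high Mmp12 control lies toward the IL-4 samples, so it narrows the difference at 24 hr. The IL-4 effect at 24 hr differed between WT and Stat6KO by the interaction test for Mmp13 (1.53), Mmp14 (-2.22), Mmp19 (2.61) and Timp1 (1.52 on the log2 scale), with the exceptions given above for the first 3.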

How the results depend on the processing

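Of 3040 values of single members under alternatives, 2991 stayed called or not called as they were. The sign changed in 271, and in 1 of these the new value was called, Mmp12 between genotypes in the 24 hr controls (2.36 without Stat6KO replicate 2 at every time). Of 380 counts of members called, 356 kept within 1.5 times. The number called for the genotype difference in the IL-4 effect at 24 hr was 2 with only the samples compared, where 600 of 11146 loci were called. Between genotypes without IL-4, where 0 were called, 1 (Mmp9) was called at 0 hr with a pseudocount of 0.1 (1.23) or TPM (1.025), and at 1 hr with these (1.31 and 1.13), quantile scaling (1.00) or without WT control replicate 1 (1.02). Without Stat6KO replicate 1 at every time 2 (Mmp12 and Mmp14) were called at 0, 1, 3 and 6 hr and 1 (Mmp12) at 24 hr, and without replicate 2 it was 1 at 24 hr, with 1 sample in each Stat6KO group assumed to vary like the WT groups. For WT controls at 24 against 0 hr the count was 0 with quantile scaling and 0 to 1 without single samples. It was 2 with only the samples compared, where 215 of 11146 loci were called. For Stat6KO controls at 24 hr against 0 hr it was 0, with 0 to 1 without single samples, 3 without replicate 1 at every time and 2 without replicate 2. For the change from 6 to 24 hr it was 2 to 5 without single samples.

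Same-numbered samples deviated together in Stat6KO (r 0.791 to 0.900) and less evenly in WT (r 0.0265 to 0.561, over 0.1 in 13 of 15 pairs), and the labels do not say that a number marks an animal. With the replicate block, 2 members were called in WT controls at 24 against 0 hr, where 215 of 11146 loci were called. In Stat6KO controls 2 were called (Mmp14, -1.09, adjusted p = 0.00176, and Mmp12, 1.27, 0.0417), where 140 loci were called. Mmp12 was called for the genotype difference in the IL-4 effect at 24 hr (2.97, adjusted p = 4.5e-05, limma), where 976 loci were called. At early times the block gave adjusted p-values under 0.05 for differences under 2-fold, which are not called. Between genotypes in the IL-4 effect these were Mmp19 at 3 hr (-0.85, 0.0244) and 6 hr (-0.73, 0.0449), Mmp14 at 6 hr (-0.87, 0.0240) and Timp2 at 6 hr (0.37, 0.00169). In WT these were Mmp13 at 1 hr, Mmp14 and Mmp19 at 3 and 6 hr, and Timp2 at 6 hr (0.24, 1.95e-04), higher with IL-4 in all 4 same-numbered pairs. The shares of all loci that reach this threshold with the block, or that differ the same way in all 4 pairs, are not given here. Without the block 28.9% of loci had an adjusted p under 0.05 in WT at 3 hr. Whether these members exceed the other loci therefore cannot be told. The block could not be fitted between genotypes, and Tukey's adjustment gives no value for the interaction. The depth is known only as a ratio, so no counting error can be given for Timp1, Timp3 or Mmp9, the lowest members.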
